A study of Mus musculus with 4 samples.

Results

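Expression of 9 genes known from lipid-laden ("foamy") macrophages was examined in the lungs of mice treated with amiodarone, dabigatran or both. The genes were Gpnmb, Ctsk, Cd68, Lgals3, Trem2, Spp1, Cd63, Fabp5 and Atp6v0d2, and all of them were found by symbol among the 17780 genes of the expression table. They were picked because Gpnmb and Ctsk stood out with amiodarone when set against vehicle, so their values in that comparison describe the choice and were not tested. Male C57BL/6J mice, 6 to 7 weeks old at purchase, received oral amiodarone at 300 mg/kg per day, oral dabigatran etexilate at 60 mg/kg per day, both drugs together, or the carboxymethylcellulose vehicle, 5 times per week for 4 weeks. No genetic change is given for any group. RNA came from left lung tissue, so every value is a mixture over all lung cells, and each of the 4 groups is represented by 1 library. The methods date the tissue to day 26, whereas the labels give 28 days of treatment, and neither says how many mice went into a library. With 1 library per group no spread between animals of a group can be measured, and no test of a treatment was run. A ratio is given with a 95% interval, an exact Clopper-Pearson one based on the reads behind both values. They cover counting error only, and a difference beyond counting error is one between 2 libraries, not between treatments.

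Macrophages of the alveoli clear surfactant lipids and debris, and break them down in lysosomes. When uptake exceeds breakdown or export, lipid collects in the cell and gives it a foamy look. Amiodarone, an antiarrhythmic, is a cationic amphiphilic drug that gathers in lysosomes and slows the breakdown of phospholipids there, and foamy macrophages are a known feature of its lung toxicity. Dabigatran etexilate is the oral prodrug of a direct thrombin inhibitor. The genes examined encode lysosome and endosome membrane proteins (Gpnmb, Cd63, Cd68 and Atp6v0d2), a lysosomal protease (Ctsk), a lipid-sensing receptor and a fatty acid carrier (Trem2 and Fabp5), and secreted proteins (Spp1 and Lgals3). Trem2 and Fabp5 are the ones best known for binding lipids, and no lipid was measured here. Cd63, Lgals3 and Fabp5 are also made by cells other than macrophages, the lung epithelium among them.

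Estimated reads on genes totalled 17498486 to 18903401 per library. Lung identity was clear in each library, with 19587 to 20385 FPKM for the surfactant gene Sftpc. FPKM scales the fragments of a gene to its transcript length and to the depth of the library, so levels of different genes can be compared on it. Together the 9 genes held 0.0513% (vehicle) and 0.0487% (dabigatran) of the reads, against 0.129% with amiodarone and 0.121% with amiodarone + dabigatran. The share was thus higher in both libraries with amiodarone than in both without it.

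Gpnmb, on chromosome 6 of GRCm38.p6 from 49036518 to 49058182, encodes a transmembrane glycoprotein of lysosomes that macrophages make under lysosomal stress. It had 3.38 FPKM with vehicle and 4.30 with dabigatran, against 37.9 with amiodarone and 37.0 with amiodarone + dabigatran. Both libraries with amiodarone lay far above both without it. The ratio of amiodarone to vehicle was 11.2 (95% interval 9.77 to 12.9, from 2662 and 222 reads), which placed Gpnmb at rank 5 among 13402 genes that reached 1 FPKM in either of these libraries, ordered by the difference in log2(FPKM + 1). Atp6v0d2, on chromosome 4 from 19876838 to 19922566, encodes the form of the d subunit of the vacuolar proton pump found in osteoclasts and macrophages. Its levels were 7.44 FPKM with vehicle and 8.43 with dabigatran, against 36.5 with amiodarone and 40.1 with both drugs. The 2 values with amiodarone were again close to each other and apart from the rest, and the ratio of amiodarone to vehicle was 4.90 (4.35 to 5.54). Cd68, on chromosome 11 from 69664213 to 69666170, encodes macrosialin, a glycoprotein of macrophage lysosomes. It was at 28.6 FPKM with vehicle and 25.8 with dabigatran, against 77.2 with amiodarone and 89.2 with the combination. Its highest value was that of the combination, and amiodarone exceeded vehicle by a ratio of 2.70 (2.46 to 2.97). Cd63, on chromosome 10 from 128896231 to 128912822, encodes a tetraspanin of late endosomes present in most cell types. It had the highest level of the 9 in every library, at 188 FPKM with vehicle and 171 with dabigatran, against 294 with amiodarone and 254 with both drugs. Its ratio of amiodarone to vehicle, 1.57 (1.5 to 1.64), was the lowest of the 9.

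Ctsk, on chromosome 3 from 95499210 to 95509387, encodes cathepsin K, a lysosomal cysteine protease that cleaves collagen and elastin. Its levels were 9.74 FPKM with vehicle and 10.6 with dabigatran, against 73.9 with amiodarone and 51.6 with amiodarone + dabigatran. Amiodarone exceeded vehicle 7.59-fold (6.68 to 8.66), which was rank 10 of the 13402 genes. The combination lay between vehicle and amiodarone, and closer to amiodarone.

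Trem2, on chromosome 17 from 48346401 to 48352276, encodes a surface receptor for lipids and lipoproteins that signals through the adaptor Tyrobp. It was the least abundant of the 9 genes in each library, at 2.74 FPKM with vehicle and 2.94 with dabigatran, against 10.4 with amiodarone and 12.2 with both drugs. These values rest on 50, 54, 203 and 242 reads, so the ratio of amiodarone to vehicle, 3.80, had a wide interval from 2.78 to 5.29. Fabp5, on chromosome 3 from 10012585 to 10016610, encodes a carrier of fatty acids in the cytoplasm. It had 44.5 FPKM with vehicle and 48.1 with dabigatran, against 92.1 with amiodarone and 115 with both drugs. As for Cd68, the highest value was that of the combination. The ratio of amiodarone to vehicle was 2.07 (1.89 to 2.27). Processed pseudogenes named after Fabp5 and Cd63 (Fabp5l2 and Cd63-ps) are annotated in GENCODE and are not among the genes of the table, so the share of reads that could also match them is uncertain.

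Spp1, on chromosome 5 from 104435111 to 104441053, encodes osteopontin, a secreted ligand of integrins and Cd44 that thrombin can cleave. It had 47.7 FPKM with vehicle and 35.9 with dabigatran, against 107 with amiodarone and 96.4 with the combination. Amiodarone exceeded vehicle by a ratio of 2.25 (2.10 to 2.41), and the dabigatran library held the lowest value. The gene model Gm42793 overlaps Spp1 by position in GENCODE, so the share of reads that could come from either is uncertain. Lgals3, on chromosome 14 from 47373860 to 47386167, encodes galectin-3, a lectin that macrophages and epithelial cells secrete and that also binds damaged lysosomes. Its levels were 125 FPKM with vehicle and 122 with dabigatran, against 271 with amiodarone and 245 with amiodarone + dabigatran. The ratio of amiodarone to vehicle was 2.17 (2.08 to 2.27).

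**Figure D1:**
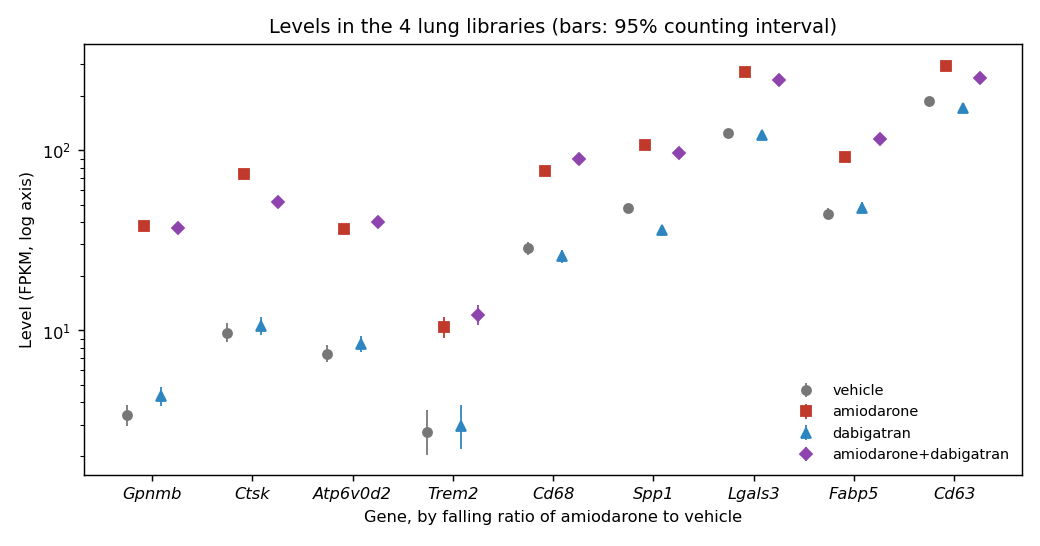
Level of each of the 9 genes (FPKM, log axis) in the vehicle, amiodarone, dabigatran and amiodarone + dabigatran libraries, 1 library per group, with 95% counting intervals as bars. For each gene the 2 libraries with amiodarone lie above the 2 without it, from Gpnmb (37.9 and 37.0 against 3.38 and 4.30 FPKM) to Cd63 (294 and 254 against 188 and 171 FPKM).

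In the comparison of amiodarone with vehicle, by which the genes had been picked, 8 of the 9 were at least 2-fold higher on the log2(FPKM + 1) scale and Cd63 was not. Of the 13402 genes compared, 1.87% were at least 2-fold higher and 0.545% at least 2-fold lower. The interval lay above 1 for all 9, as it did for 19.5% of the genes compared, while for 30.1% it lay below. The 9 genes had a median difference of 1.40 in log2(FPKM + 1), against -0.05 over all genes compared. Since the genes were chosen on this comparison, nothing further is drawn from these counts. Whether more macrophages were present or each held more of these RNAs cannot be told apart in RNA from whole tissue.

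The promoters of Gpnmb and Ctsk, which stood highest against vehicle, and of the macrophage genes Cd68 and Trem2 are printed to show the sequence around their start sites. The sequences are from RefSeq (GRCm38.p6), run 5′ to 3′ on the strand of the gene, and reach from position -240 to position 20 relative to the annotated start. Capitals mark the letters of the motifs searched, on either strand. The spans are chr6:49036278-49036537 on the plus strand for Gpnmb, chr3:95498970-95499229 on the plus strand for Ctsk, chr11:69666151-69666410 on the minus strand for Cd68 and chr17:48346161-48346420 on the plus strand for Trem2.
Gpnmb: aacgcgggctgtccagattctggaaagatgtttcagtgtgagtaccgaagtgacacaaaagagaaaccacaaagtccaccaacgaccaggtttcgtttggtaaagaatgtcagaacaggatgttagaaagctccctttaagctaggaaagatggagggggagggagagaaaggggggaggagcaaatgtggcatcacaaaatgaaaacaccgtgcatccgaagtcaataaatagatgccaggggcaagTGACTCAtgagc
Ctsk: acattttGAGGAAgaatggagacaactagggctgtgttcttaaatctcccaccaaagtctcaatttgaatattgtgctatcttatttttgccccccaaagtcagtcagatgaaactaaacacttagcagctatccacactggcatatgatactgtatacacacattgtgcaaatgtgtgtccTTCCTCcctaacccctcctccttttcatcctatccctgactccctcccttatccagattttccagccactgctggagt
Cd68: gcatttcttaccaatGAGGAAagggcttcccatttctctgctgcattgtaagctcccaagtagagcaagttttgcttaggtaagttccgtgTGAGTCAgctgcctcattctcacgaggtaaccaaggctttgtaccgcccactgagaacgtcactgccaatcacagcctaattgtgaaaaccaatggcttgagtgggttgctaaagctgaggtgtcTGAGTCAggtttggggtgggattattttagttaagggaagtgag
Trem2: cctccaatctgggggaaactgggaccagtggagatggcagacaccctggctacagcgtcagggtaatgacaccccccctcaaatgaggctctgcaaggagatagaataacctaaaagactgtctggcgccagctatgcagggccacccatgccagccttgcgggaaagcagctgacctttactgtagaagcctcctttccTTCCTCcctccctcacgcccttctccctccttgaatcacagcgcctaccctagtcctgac

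Windows of 300 bases, from 250 before to 50 after the start, were searched on both strands. The promoter set used held 8 windows for 7 of the 9 genes. Fabp5 and Atp6v0d2 had no window in that set, although both have a RefSeq gene position. The E-box CACGTG, which lysosomal transcription factors of the MITF/TFE family read, was in 0 of the 7 genes and in 7.15% of all 32851 windows. The M-box TCATGTG, read by the same family, was likewise in 0 of the 7, against 3.77% of all windows. The AP-1 site TGACTCA was in 2 of the 7, in Gpnmb at positions 9 to 15 and in Cd68 from positions -149 and -24, against 5.20% of all windows. The core GAGGAA, which the macrophage factor PU.1 can read, was in 5 of the 7 (Cd63, Cd68, Ctsk, Trem2 and Spp1), against 28.3% of all windows. The Cd63 matches lay in a window that starts at 128909095, within the gene span given above and not at its first base. For each motif the 7 are counted by gene and the background by window, so the 2 shares are not strictly alike. No matches of different motifs overlapped in the windows of these genes, and a match gives only the letters present.

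Addition of dabigatran to amiodarone was next examined by comparing the combination with amiodarone alone. None of the 9 genes was at least 2-fold higher or lower, against 0.189% and 0.287% of the 13261 genes compared. Gpnmb had nearly the same level in both libraries, at a ratio of 0.977 (0.926 to 1.03). Ctsk differed most, at a ratio of 0.698 (0.653 to 0.746), and ranked 13036 of 13261 from the highest. Cd63 at 0.862 (0.826 to 0.899), Spp1 at 0.898 (0.851 to 0.949) and Lgals3 at 0.905 (0.874 to 0.937) were also lower beyond counting error. In the other direction, Fabp5 at 1.25 (1.17 to 1.34), Cd68 at 1.16 (1.08 to 1.23) and Atp6v0d2 at 1.10 (1.03 to 1.17) were higher. The ratio of Trem2, 1.17 (0.968 to 1.42), lay within counting error, as did that of Gpnmb. In all, 3 genes had an interval above 1 and 4 below it, where 21.1% and 15.0% of all genes compared did. The median log2(FPKM + 1) difference over the 9 genes was -0.03, against 0.03 over all genes compared. The 9 genes thus did not share a direction between amiodarone and the combination. The amiodarone library was part of the comparison by which they were picked, so these values are a description too.

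Dabigatran alone was compared with vehicle for the values of this drug without amiodarone. No gene of the 9 reached 2-fold in either direction, against 0.0897% of the 13373 genes compared that were at least 2-fold higher and 0.0673% that were lower. For 6 of the 9 genes the difference lay within counting error. Gpnmb was higher, at a ratio of 1.27 (1.06 to 1.52, from 286 and 222 reads), and 15.2% of all genes compared were higher beyond counting error. Spp1, at 0.753 (0.689 to 0.823), and Cd63, at 0.914 (0.866 to 0.965), were lower, as were 13.4% of all genes compared. The ratio of Spp1 was the lowest of the 9. This comparison and that of amiodarone share the vehicle library.

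The combination was also set against dabigatran alone. The genes were picked for being high with amiodarone in these libraries, so the counts of this pair are a description too, and nothing is read from them. In this pair 7 of the 9 genes were at least 2-fold higher, against 1.15% of the 13379 genes compared, of which 0.434% were at least 2-fold lower. The exceptions were Cd63 and Lgals3, and Lgals3 fell just short on the log2(FPKM + 1) scale with a plain ratio of 2.01 (1.92 to 2.10). The interval lay above 1 for all 9 genes, and for 19.5% of all genes compared. The median log2(FPKM + 1) difference over the 9 was 1.74, against -0.01 over all genes compared. Gpnmb again had the highest ratio, 8.61 (7.62 to 9.76), at rank 6 of 13379. Ctsk was at 4.88 (4.30 to 5.55), Atp6v0d2 at 4.76 (4.25 to 5.33), Trem2 at 4.15 (3.08 to 5.68) and Cd68 at 3.46 (3.14 to 3.81). The intervals of Ctsk, Atp6v0d2 and Trem2 overlapped. Spp1 was at 2.68 (2.48 to 2.90), Fabp5 at 2.39 (2.2 to 2.60) and Cd63 at 1.48 (1.41 to 1.55).

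**Figure D2:**
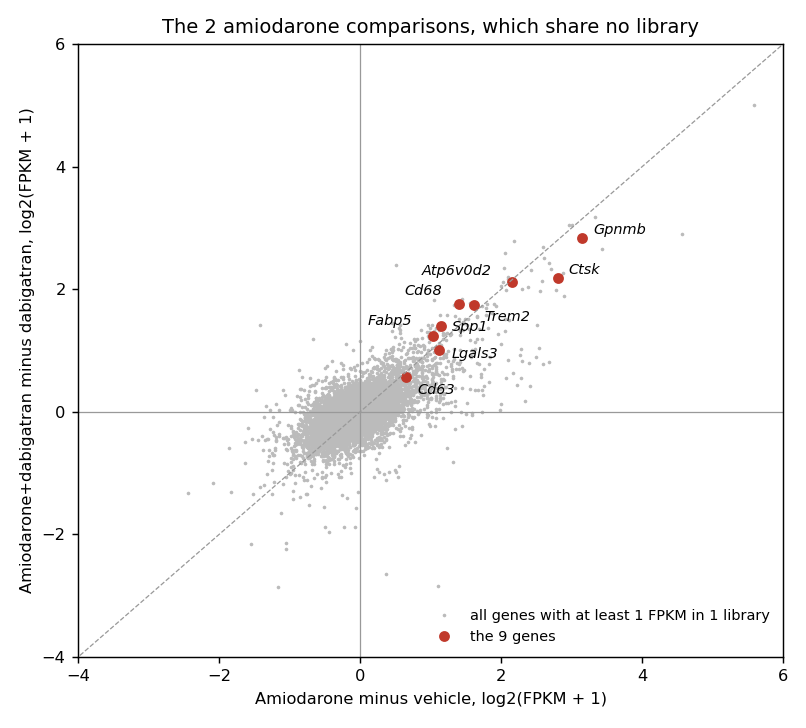
Difference between amiodarone and vehicle (x axis) and between amiodarone + dabigatran and dabigatran (y axis), both in log2(FPKM + 1), for the 9 genes and, in grey, all genes with at least 1 FPKM in 1 or more libraries. The 9 genes lie in the upper right, from Cd63 (0.65 and 0.56) to Gpnmb (3.15 and 2.84), and Ctsk (2.80 and 2.18) lies farthest below the line of equal differences among them.

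The amiodarone ratio with dabigatran was divided by the amiodarone ratio without it, using all 4 libraries, with a 95% interval from the reads on the log scale. The divisor is the ratio by which the genes were picked, for high values of Gpnmb and Ctsk, so the quotients are a description too. The quotient was below 1 for Ctsk, at 0.643 (0.537 to 0.769), for Gpnmb, at 0.768 (0.639 to 0.923), and for Lgals3, at 0.924 (0.868 to 0.983). It was above 1 for Cd68, at 1.28 (1.12 to 1.46), for Spp1, at 1.19 (1.08 to 1.32), and for Fabp5, at 1.15 (1.02 to 1.30). For Atp6v0d2 (0.970, from 0.825 to 1.14), Trem2 (1.09, from 0.712 to 1.67) and Cd63 (0.943, from 0.881 to 1.01) it lay within counting error. For Gpnmb the levels with amiodarone and with the combination were within counting error of each other, and its quotient went with the higher level in dabigatran than in vehicle. For Ctsk the reverse held, since vehicle and dabigatran were within counting error and the libraries with amiodarone differed. The quotient of Spp1 went with its low level in dabigatran.

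**Figure D3:**
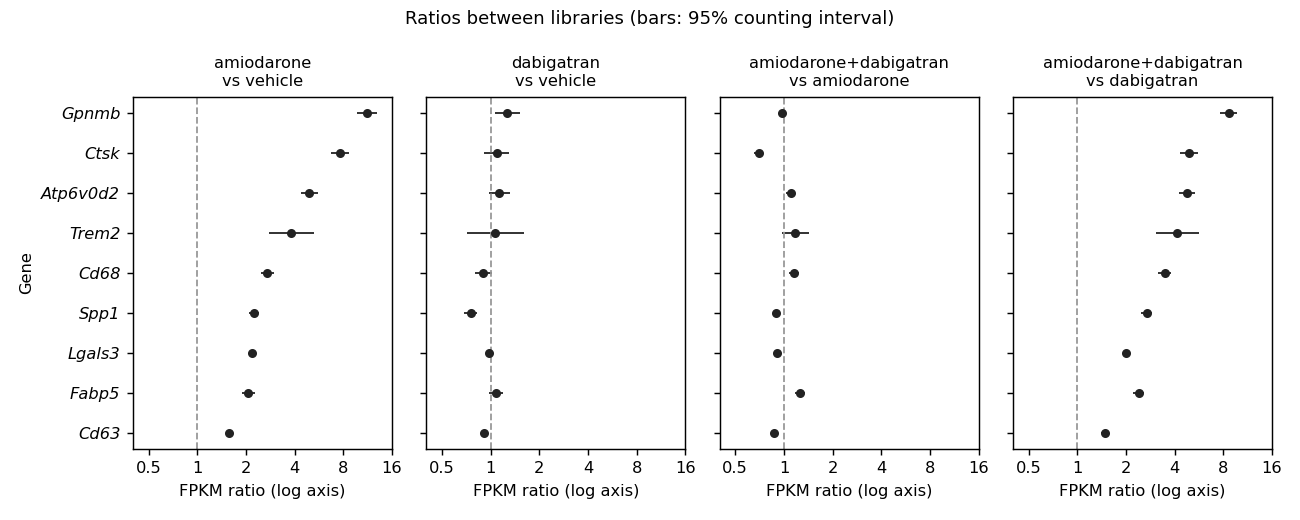
FPKM ratios (log axis) of the 9 genes in 4 comparisons of single libraries, with 95% counting intervals as bars and a line at 1. The comparisons of amiodarone with vehicle (1.57 to 11.2) and of the combination with dabigatran (1.48 to 8.61) lie right of the line for every gene, whereas dabigatran against vehicle (0.753 to 1.27) and the combination against amiodarone (0.698 to 1.25) lie on both sides of it.

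The order of the 9 genes by level was similar in the 4 libraries. Cd63 and Lgals3 led in each, and Trem2 came last. With vehicle, Ctsk was at rank 6, Atp6v0d2 at 7 and Gpnmb at 8, and the intervals of Gpnmb and Trem2 overlapped, as did those of Spp1 and Fabp5. With amiodarone Gpnmb stood at rank 7, with an interval that overlapped that of Atp6v0d2, and Ctsk came level with Cd68 within their intervals (73.9 and 77.2 FPKM). With dabigatran the order was that of vehicle except that Fabp5 stood above Spp1, and the intervals of Gpnmb and Trem2 again overlapped. With the combination Fabp5 also stood above Spp1, and the intervals overlapped for Cd63 and Lgals3, for Spp1 and Cd68 and for Atp6v0d2 and Gpnmb.

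Levels were then divided by those of general macrophage genes in the same library. Per Cd68, Gpnmb was at 0.118 with vehicle and 0.491 with amiodarone, Ctsk at 0.341 and 0.958, and Atp6v0d2 at 0.260 and 0.473. In the pair with dabigatran, Gpnmb was at 0.167 with dabigatran and 0.415 with both drugs, Ctsk at 0.410 and 0.579, and Atp6v0d2 at 0.327 and 0.450. For these 3 genes the level per Cd68 was higher with amiodarone in both pairs, with intervals that did not overlap. Trem2 per Cd68 had overlapping intervals in both pairs (0.0959 and 0.135, then 0.114 and 0.137). The other 4 genes, Cd63, Fabp5, Spp1 and Lgals3, were lower per Cd68 with amiodarone in both pairs, Cd63 most, from 6.56 to 3.81 and from 6.65 to 2.84. The direction for these 4 depended on the gene chosen as divisor. Per Csf1r, the receptor for the macrophage growth factor, which differed little between libraries (38.7 to 44.9 FPKM), all 9 genes were higher with amiodarone in both pairs, Cd63 from 4.85 to 7.23 and from 4.19 to 5.65. Per Adgre1, which encodes the macrophage surface protein F4/80, Gpnmb went from 0.812 to 4.93, Ctsk from 2.34 to 9.61 and Atp6v0d2 from 1.79 to 4.75, and these 3 with Trem2 and Cd68 were higher in both pairs with intervals apart. Cd63, Fabp5, Spp1 and Lgals3 per Adgre1 had overlapping intervals between vehicle and amiodarone. In the pair with dabigatran Cd63 per Adgre1 was lower with both drugs (37.2 and 28.2) and Spp1 higher (7.79 and 10.7), with intervals apart, and those of Fabp5 and Lgals3 overlapped. Gpnmb, Ctsk and Atp6v0d2 were thus higher with amiodarone under each of these 3 divisors. The genes had been picked because Gpnmb and Ctsk were high with amiodarone, so these values are a description too.

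The relatives of the 9 genes were examined to see whether whole families differed. Atp6v0d1, the d subunit that all cells use, was at 67.7 FPKM with vehicle and 64.3 with dabigatran, against 82.8 with amiodarone and 85.0 with the combination. Atp6v0d2 was thereby at 0.110 of Atp6v0d1 with vehicle (0.0974 to 0.124) and at 0.441 with amiodarone (0.414 to 0.469). Among the cathepsins, Ctss, the macrophage cathepsin S, had 77.1 FPKM with vehicle and 80.3 with dabigatran, against 227 with amiodarone and 206 with both drugs. Ctsk per Ctss was 0.126 with vehicle, 0.326 with amiodarone and 0.251 with the combination, so the lower Ctsk of that library was seen against cathepsin S too. Ctsl, at a ratio of amiodarone to vehicle of 1.34, and Ctsb, at 1.48, differed less than Ctsk. Fabp4, the fatty acid carrier of adipocytes, macrophages and capillaries, was at 28.8 FPKM with vehicle and 24.7 with amiodarone, a ratio of 0.857 within counting error (0.724 to 1.01). Fabp3, the carrier of heart and muscle, was lower with amiodarone, at 50.4 against 89.7 FPKM. Fabp5 was the one higher of these 3 carriers. Lgals1, the galectin of connective tissue, was at 136 and 124 FPKM, so Lgals3 per Lgals1 stood at 0.918 with vehicle and at 2.18 with amiodarone. The tetraspanin Cd9 had a ratio of amiodarone to vehicle of 1.43, near that of Cd63, whereas Cd81 was at 0.884. Of the 20 relatives with at least 1 FPKM in either library, 1 was at least 2-fold higher with amiodarone (Ctss), 13 were higher and 5 lower beyond counting error, and the median log2(FPKM + 1) difference was 0.37. Of all genes compared, 1.87% were at least 2-fold higher, and 19.5% were higher and 30.1% lower beyond counting error.

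**Figure D4:**
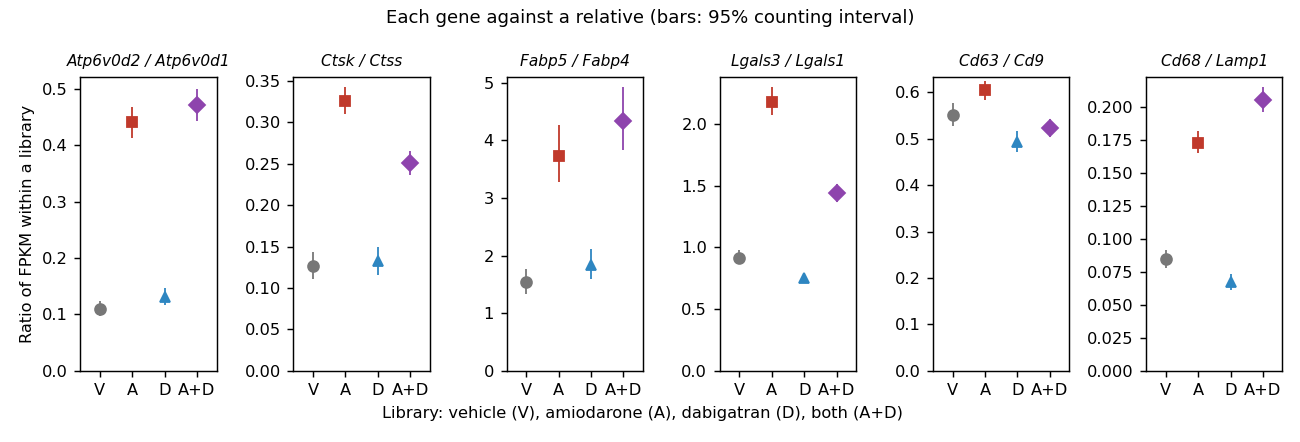
Level of 6 of the genes divided by that of a relative in the same library (ratio of FPKM), for vehicle (V), amiodarone (A), dabigatran (D) and both drugs (A+D), with 95% counting intervals as bars. Atp6v0d2 per Atp6v0d1 stands at 0.441 and 0.472 with amiodarone and at 0.110 and 0.131 without it, whereas Cd63 per Cd9 stays between 0.493 and 0.604.

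Of 23 further genes known in lipid-laden macrophages, 5 were at least 2-fold higher with amiodarone than with vehicle and 0 lower by as much. Beyond counting error 19 were higher and 0 lower, and the median log2(FPKM + 1) difference was 0.52. Of all genes compared, 1.87% were at least 2-fold higher and 0.545% lower by as much. Beyond counting error 19.5% of all genes were higher and 30.1% lower. The elastase gene Mmp12 had the highest ratio of amiodarone to vehicle, 4.93 (3.72 to 6.62), followed by the scavenger receptor gene Msr1, at 3.97 (2.82 to 5.70), both at low levels (9.46 and 2.94 FPKM with amiodarone). Apoe, a ligand of Trem2 that carries lipid out of cells, was at 393 FPKM with vehicle and 383 with dabigatran, against 720.2 with amiodarone and 705 with both drugs. Lpl, which releases fatty acids from lipoproteins, was at 63.8, 138, 65.0 and 99.2 FPKM in the vehicle, amiodarone, dabigatran and combination libraries. For Lpl, as for Ctsk, the combination lay below amiodarone, at a ratio of 0.716 (0.695 to 0.738). Tyrobp, the signalling partner of Trem2, was at 86.3, 183, 78.7 and 203 FPKM in the order given for Lpl, highest with the combination. Trem2 was highest there too, but within counting error of its level with amiodarone. Plin2, the coat protein of lipid droplets, was at 52.6, 75.8, 50.8 and 64.6 FPKM in that order. Tyrobp and Plin2 were chosen for naming after their values were seen. Against dabigatran alone, 21 of the 23 were higher with the combination beyond counting error, 3 of them at least 2-fold, and Cd36, a lipid scavenger receptor that capillaries also carry, was lower. In that pair 19.5% of all genes compared were higher and 23.5% lower beyond counting error, and 1.15% were at least 2-fold higher.

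Ctsk and Atp6v0d2 are also known from osteoclasts, and 12 other genes of osteoclasts were examined, of which 8 had at least 1 FPKM with vehicle or amiodarone. Acp5, the acid phosphatase that macrophages share with osteoclasts, was the 1 gene of the list at least 2-fold higher with amiodarone on the log2(FPKM + 1) scale (13.4 FPKM with vehicle and 31.3 with amiodarone). Mmp9 had 4.28 and 9.36 FPKM, and Tcirg1, a pump subunit, 23.3 and 33.4 FPKM. Nfatc1, the master factor of osteoclasts, had a ratio of 1.04 (0.969 to 1.13), and the fusion genes Dcstamp and Ocstamp, named after their values were seen, had at most 10 reads in any library. The median log2(FPKM + 1) difference of the list was 0.37. Of all genes compared, 1.87% were at least 2-fold higher.

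Of the MITF/TFE transcription factors, which drive lysosomal genes and Gpnmb among them, Tfec was higher with amiodarone beyond counting error, at 1.26 FPKM with vehicle and 2.48 with amiodarone, a ratio of 1.97 (1.32 to 2.98). Mitf at 1.14 (0.939 to 1.40), Tfe3 at 0.963 (0.890 to 1.04) and Tfeb at 0.894 lay within counting error. The RNA level of these factors does not show their activity, which is set largely by their entry into the nucleus. Among 9 receptor genes for osteopontin 0 reached 2-fold. Cd44 was the 1 higher with amiodarone beyond counting error, at 29.0 FPKM with vehicle and 36.1 with amiodarone, and 4 were lower, with Itga8 at 41.1 and 28.8 FPKM. Over all genes compared, 19.5% were higher and 30.1% lower by the same interval, so these counts were near the background.

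Markers of macrophages and of other cells also differed between these libraries, and their part in the results above was not tested. Of all genes compared, 19.5% were higher with amiodarone than with vehicle beyond counting error and 30.1% lower, and 1.87% were at least 2-fold higher. Of 10 general macrophage markers, 8 were higher with amiodarone than with vehicle beyond counting error, 2 of them at least 2-fold, and the median log2(FPKM + 1) difference was 0.74. They ran from Csf1r, at 38.7 and 40.7 FPKM, to Fcgr1, at 1.42 and 6.21 FPKM. Their FPKM summed to 3530, 5115, 3835 and 4816 in the vehicle, amiodarone, dabigatran and combination libraries, most of it Lyz2, and the other 9 to 134, 208, 143 and 198. Among 11 alveolar macrophage markers 7 were higher and 3 lower, with Chil3 at 90.3 and 731 FPKM and Ear1 at 22.3 and 4.48 FPKM, and their summed level was 383, 1102, 439.5 and 1317 FPKM in the same order of libraries. Chil3 made up most of that difference, since the other 10 markers summed to 293, 371, 326 and 377 FPKM. All 8 neutrophil markers were higher with amiodarone, with a median log2(FPKM + 1) difference of 2.04 and a summed level of 116, 624, 101 and 446 FPKM. In the combination against dabigatran, 8 of the 10 general macrophage markers, 7 of the 11 alveolar macrophage markers and 6 of the 7 neutrophil markers with at least 1 FPKM were higher beyond counting error, and 0, 3 and 1 were lower, among them Ear1 (10.3 against 24.4 FPKM) and the neutrophil granule gene Ltf (15.2 against 33.2 FPKM), the latter named after its values were seen. In that pair 19.5% of all genes compared were higher and 23.5% lower beyond counting error. The 6 airway epithelium markers summed to 130936, 78257, 105044 and 102339 FPKM, and the 9 lymphocyte markers to 149, 74.2, 144 and 108 FPKM, lowest with amiodarone in both cases. The 8 alveolar epithelium markers summed to 27826, 28291, 27334 and 29284 FPKM and the 6 endothelium markers to 1009, 1056, 1175 and 936 FPKM. The 6 fibroblast and smooth muscle markers summed to 523, 380.4, 547 and 432 FPKM and the 4 mesothelium markers to 94.6, 46.3, 93.4 and 106 FPKM, again lowest with amiodarone. Every marker of these lists had reads in each library.

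Finally, the genes whose pattern over the 4 libraries was most like that of Gpnmb or of Ctsk were sought among 10148 genes with at least 5 FPKM in 1 or more libraries, by the distance over the 3 differences from vehicle in log2(FPKM + 1). Nearest to Gpnmb were Chil3 (distance 0.293), which encodes a chitinase-like protein of macrophages, then Cxcr1 (0.538), Spag11b (0.581), Retnlg (0.610) and Wfdc17 (0.833). Chil3 had 90.3, 731, 113 and 940.2 FPKM in the vehicle, amiodarone, dabigatran and combination libraries. Cxcr1 and Retnlg are known from neutrophils. Nearest to Ctsk were Wfdc21 (0.140), Apod (0.216), I830127L07Rik (0.304), Gdf15 (0.335) and Spag11b (0.397). Apod, which encodes the lipid carrier apolipoprotein D, had 4.50, 34.2, 4.63 and 29.1 FPKM in the same order. Gdf15, which encodes a cytokine made under stress, had 1.0, 12.6, 0.990 and 6.89 FPKM. Cxcr1 and Spag11b had less than 1 FPKM with vehicle, where adding 1 before taking log2 shrinks a difference. Their plain ratios of amiodarone to vehicle were 34.4 and 71.1, against 11.2 for Gpnmb and 7.59 for Ctsk. The nearness of Cxcr1 and Spag11b is thus one on the log2(FPKM + 1) scale, and their plain ratios were not close. Of the 9 genes, Cd68, Fabp5 and Atp6v0d2 were highest with both drugs, as was Chil3. Trem2 also had its highest value there, but within counting error of that with amiodarone. Ctsk, Cd63, Spp1 and Lgals3 were highest with amiodarone alone, as were Apod and Gdf15. Gpnmb also had its highest value with amiodarone alone, but within counting error of that with both drugs.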

How the data were processed

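Poly(A) RNA from mouse lung was sequenced by DNBseq, with 1 library for each of 4 groups taken from the treatment labels. Per the methods and labels, the authors mapped reads to the GRCm38.p6 genome with HISAT and to reference gene sequences with Bowtie2, and estimated expression with RSEM. The deposited table gives estimated counts and a normalized level per gene, taken here as FPKM from its values and the tool, since its header does not name the unit. Its 8 columns of means over 2 libraries were not used, and strand was not given in the sources used here. Of 17780 identifiers, 17669 matched RefSeq. 1 symbol (Plin2) stands under 2 identifiers, and the one that matched RefSeq was used.

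The 9 genes and all gene lists were chosen with earlier results of these data known. Estimated counts were rounded for exact Clopper-Pearson intervals at 95%, rescaled to the FPKM ratio, and quotients of 2 ratios had log-normal intervals. Intervals and totals (17498486 to 18903401 estimated reads) cover counting error only. A gene was compared with at least 1 FPKM in either library, and called at 2-fold on log2(FPKM + 1). With 1 library per group no p-value was computed. Of each list, up to 4 genes highest with vehicle and 4 with the largest difference between amiodarone and vehicle were named, and the 5 nearest genes to Gpnmb and Ctsk. The closest relatives of the 9 genes were named after their values were seen. Alternatives were a pseudocount of 0.1, no filter or 5 FPKM, median-ratio scaling, TMM factors (edgeR 4.0.16, R 4.3.3), read counts over the library total, 1.5-fold, and the interval alone. The computation was tested on simulated data. Python 3.11.15 with pandas 2.3.3 and scipy 1.17.1 was used.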

Additional observations from a re-analysis of the deposited data

Results flagged for a closer look

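Of the genes on the lists, Cd36, a scavenger receptor for oxidised lipoproteins, differed in opposite directions in the 2 pairs with and without amiodarone. With amiodarone it stood at 306 FPKM against 298 for vehicle, a ratio of 1.03 (95% counting interval 1.0 to 1.05, which barely clears 1). With both drugs it stood at 278 FPKM against 336 for dabigatran, a ratio of 0.828 (0.810 to 0.847). The interval lay above 1 in the first pair and below 1 in the second. Other listed genes had intervals on opposite sides of 1 too, among them the endothelium markers Pecam1, Cdh5, Tek and Vwf. Vwf had a ratio of 1.38 (1.34 to 1.41) in the first pair and 0.789 (0.769 to 0.810) in the second. The difference between the pairs was not tested, since each group is 1 library. Intervals on opposite sides of 1 were found for 541 of 13245 genes (4.08%), and for 0 of the 9 genes.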

How the results depend on the processing

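Counts of genes at least 2-fold higher and medians over the 9 genes were recomputed under each alternative. Against vehicle, amiodarone gave 8 of the 9 throughout, or 9 at 1.5-fold and by the counting interval alone. Over all genes the share was 1.41% to 2.74% at 2-fold, 4.34% at 1.5-fold and 19.5% by the interval. The combination against dabigatran gave 7, or 8 with a pseudocount of 0.1, median-ratio scaling, TMM scaling, read counts over the library total or 1.5-fold, and 9 by the interval. For this pair the share over all genes was 0.866% to 1.79% at 2-fold, 3.25% at 1.5-fold and 19.5% by the interval. The count by the interval alone was 1 for dabigatran against vehicle (Gpnmb) and 3 for the combination against amiodarone (Cd68, Atp6v0d2 and Fabp5), against 0 for both at 2-fold, since an interval needs no minimum size. By that interval 15.2% and 21.1% of all genes compared were higher in these pairs. Median log2 differences ran from 1.40 to 1.46 for amiodarone against vehicle, and from 1.74 to 1.79 for the combination against dabigatran. All 108 ratios of single genes under another scaling kept their direction and moved by less than their counting interval. No replicate could be left out, with 1 library per group, and the counting intervals hold none of the spread between mice. No paired analysis was possible because the groups share fewer than 2 replicate numbers and no result comes from a test. A fit additive in both drugs, which would leave 1 residual degree of freedom, was not run. Trem2, with 50 to 242 reads, was the least precise of the 9.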
